A study of Mus musculus with 3 samples.

Results

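The transcription factor Tal1, its relatives Tal2 and Lyl1, the adaptor Lmo2, the zinc-finger factors Gata1, Gata2 and Gata3, and the runt-domain factor Runx1 were followed in the dorsal cortex of newborn mice that differed in Brpf1. These 8 genes were chosen by name as regulators of blood formation, with earlier results of these arrays known, and every probe carrying 1 of these names was used, dim probes included. They have 9 of the 55681 non-control probes, 2 for Runx1 and 1 for each of the other genes, and every probe is printed as 1 spot. Of the 8 genes, 5 (Tal1, Lyl1, Lmo2, Gata2 and Runx1) had a probe that passed the filter on dim probes and belong to the 23232 genes of the fit. Tal2, Gata1 and Gata3 did not pass it. Because the members were chosen with these ratios in view, their ratios are given as a description. The number of members past the threshold of the fit is given beside the share of all genes and supports nothing.

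TAL1 is a basic helix-loop-helix protein that binds DNA together with an E protein such as TCF3 or TCF12. LMO2 and LDB1 bridge this pair to a GATA factor, and the resulting complex drives the formation of blood stem cells and of red cells, with RUNX1 acting beside it in the emergence of the first stem cells. Outside blood, Tal1, Tal2, Gata2 and Gata3 are known as selectors of GABA neurons in the midbrain, brainstem and spinal cord, and Tal1, Lmo2 and Gata2 are also active in endothelial cells.

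The sequences upstream of the start sites are shown for Tal1, the member with the large ratio, and for Tal2, its relative on the same chromosome. They come from RefSeq, assembly GRCm38.p6, and each holds the 250 bases before a start, written 5′ to 3′ on the gene's strand. Capitals mark a match to GATAA, the core letters bound by GATA factors, or to CANNTG, the E-box bound by helix-loop-helix factors, searched on both strands. A GATAA on the other strand reads TTATC.
Tal1, first start, chr4:115056176-115056425, plus strand: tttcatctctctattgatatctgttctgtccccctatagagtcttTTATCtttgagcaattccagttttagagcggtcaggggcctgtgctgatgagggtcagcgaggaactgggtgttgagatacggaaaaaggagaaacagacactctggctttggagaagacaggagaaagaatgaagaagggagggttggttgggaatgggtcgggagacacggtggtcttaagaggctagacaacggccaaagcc
Tal1, second start, chr4:115057561-115057810, plus strand: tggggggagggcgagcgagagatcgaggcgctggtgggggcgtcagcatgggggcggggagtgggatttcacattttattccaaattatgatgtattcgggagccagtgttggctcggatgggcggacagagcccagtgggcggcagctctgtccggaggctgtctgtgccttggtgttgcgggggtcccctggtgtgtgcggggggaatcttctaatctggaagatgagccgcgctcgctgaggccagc
Tal2, chr4:53779451-53779700, plus strand: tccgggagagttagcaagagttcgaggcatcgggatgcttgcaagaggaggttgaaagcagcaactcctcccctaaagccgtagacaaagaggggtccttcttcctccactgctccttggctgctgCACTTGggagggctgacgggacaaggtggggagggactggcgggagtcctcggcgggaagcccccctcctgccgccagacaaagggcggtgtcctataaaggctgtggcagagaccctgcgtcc
The first Tal1 window held 1 GATAA and no E-box, the second Tal1 window held neither, and the Tal2 window held 1 E-box. Upstream windows were at hand for 7 of the 8 members, 10 windows in all. GATAA lay in 1 of these 10 windows, against 22.6% of 32851 mouse windows of the same length. CANNTG lay in 4 of 10, against 66.2%, and TGTGGT, the core bound by RUNX factors, lay in 0 of 10, against 14.0%. A match describes letters in this window only.

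The arrays compared 2 groups, wild-type pups and Brpf1-deficient pups at postnatal day 4, with RNA of 1 pup of each kind on each of 3 two-colour Agilent arrays (pairs 1 to 3). Brpf1 encodes a scaffold protein of histone acetyltransferase complexes. The wild-type RNA was labelled with Cy3 and the Brpf1-deficient RNA with Cy5 on every array, so that genotype and dye cannot be told apart. The strain, the allele, any Cre driver and the litters are left unnamed in the labels, no pup was treated, and the spread over the 3 arrays is the only error available.

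The deposited spots were well above background for 59.9% to 61.0% of 59305 spots in Cy3 and 57.9% to 58.2% in Cy5. All 11 cortex markers examined, among them the deep-layer factor Tbr1, passed the filter. The single Brpf1 probe was brighter in Cy5, the channel labelled Brpf1-deficient, with log2 ratios (Cy5 over Cy3) of 0.62, 0.73 and 0.96. Its mean was 0.77 ± 0.17 (SD, n = 3), and its place relative to the deletion is not given in the sources used here. The authors' deposited table carries the opposite sign for all 3981 probes past the threshold, and across 23924 probes its fold changes correlated with the ratios used here at r = -0.938. The direction of that table is not stated. Every value is therefore given by channel: a negative log2 ratio means brighter in Cy3, labelled wild type, and a positive one means brighter in Cy5. Emx1, a dorsal cortex marker singled out after its values were seen, had log2 ratios of 0.65, -2.72 and -2.65 on arrays 1, 2 and 3, so that array 1 stood apart from the other two for this gene. Whether pair 1 differs from pairs 2 and 3 in genotype is not given in the labels and was not tested. Each mean over 3 arrays pools pair 1 with the other pairs. Across the 23232 genes, ratios on array 1 correlated with those on array 3 at r = 0.703 and on array 2 at r = 0.566, and arrays 2 and 3 with each other at r = 0.588 (genes are not independent replicates).

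Tal1 stood far from every other member. Its median spot intensity in Cy3 was 3163, 2353 and 2250 on arrays 1, 2 and 3, over local backgrounds of 49, 45.5 and 48. In Cy5 it was 963, 830.5 and 881, over backgrounds of 125, 127.5 and 123. The Cy3 signal exceeded the Cy5 signal on all 3 arrays, the 2 ranges did not overlap, and all 6 readings were well above background. After subtraction of the background, Cy3 exceeded Cy5 by 3.72, 3.28 and 2.91 times. The typical spot went the other way: among spots above background in both channels, the median ratio of Cy5 to Cy3 was 1.52, 1.75 and 1.65, and this dye imbalance is removed by the loess step.

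**Figure D1:**
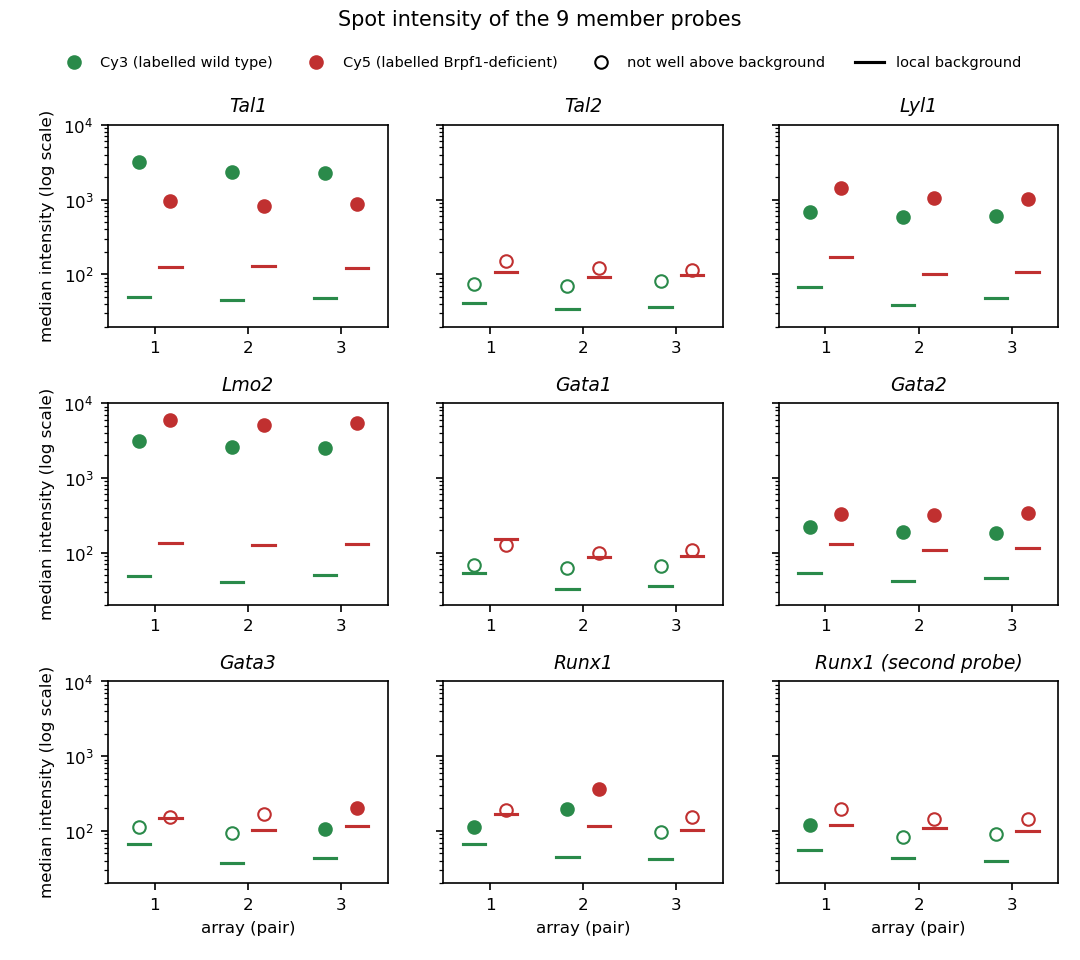
Median spot intensity (log scale) of the 9 member probes on arrays 1 to 3, in Cy3 (green, labelled wild type) and Cy5 (red, labelled Brpf1-deficient), with the local background as a bar and open circles for readings not well above background. Tal1 is the only panel in which Cy3 lies above Cy5 (3163, 2353 and 2250 against 963, 830.5 and 881), and the circles of Tal2 and Gata1 are all open.

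After loess, the log2 ratio of Tal1 was -2.32, -2.38 and -2.10 on arrays 1, 2 and 3. The mean was -2.27 ± 0.15 (SD, n = 3), a 4.81-fold higher signal in Cy3, and the 3 arrays lay close together. It was -2.24 without array 1, the array on which Emx1 stood apart. Tal1 ranked 9th from the lowest among the 23232 genes, and 26th with the scanner software's processed signals. Over all of these genes the median log2 ratio was -0.0064, the 5th and 95th percentiles were -0.39 and 0.35, and 52 genes (0.224%) were at least 2-fold brighter in Cy3. Of the 5 members in the fit, Tal1 alone passed an adjusted p of 0.05 (limma, Benjamini-Hochberg), beside 17.1% of all genes in either direction, 9.16% brighter in Cy3 and 7.97% brighter in Cy5. With no filter on dim probes all 8 members entered the fit, and again Tal1 alone passed, beside 12.1% of 35468 genes. The 3981 genes past the threshold became 1866 without array 3 and 1108 with the processed signals. Nothing is read from the members' count, since the choice of members used this contrast. In bulk tissue, a difference in the number of cells that express Tal1 and one in Tal1 RNA per cell cannot be told apart. Nor can genotype and dye, since no array had the dyes swapped.

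**Figure D2:**
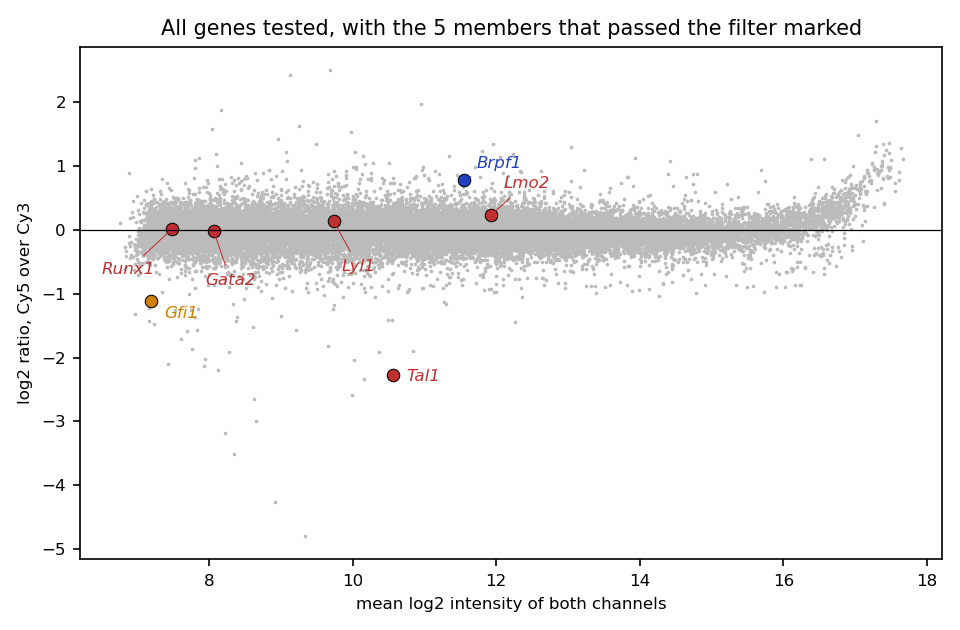
Mean log2 ratio (Cy5 over Cy3) against mean log2 intensity of both channels for the 23232 genes, with the 5 members that passed the filter in red, Brpf1 in blue and Gfi1 in orange. Tal1 lies at -2.27, away from the band of genes around 0 that holds the other 4 members, and the 87 genes with a mean log2 intensity above 17 have a median ratio of 0.80.

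The helix-loop-helix relatives of Tal1 did not share its ratio. Lyl1, which can replace part of TAL1's work in blood stem cells, had Cy3 intensities of 684, 583 and 595 and Cy5 intensities of 1420, 1034 and 1024.5, all well above background. Its log2 ratio was 0.37, -0.02 and 0.05, with a mean of 0.13 ± 0.20 (SD, n = 3). Array 1 was the high one, and the other two lay at 0, so the mean is smaller than the spread.

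Tal2, which acts with Tal1 in midbrain GABA neurons, was not well above background in either channel on any array. Its Cy3 intensities were 73, 69 and 81 over backgrounds of 41, 34 and 36, and its Cy5 intensities were 152, 123 and 115 over backgrounds of 107, 91 and 97. Its log2 ratio of 0.29, 0.15 and -0.16 changed sign between arrays, with a mean of 0.09 ± 0.23 (SD, n = 3). At these intensities a difference in Tal2 was not detectable.

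Lmo2, the adaptor that joins TAL1 to GATA factors, gave clear signal in both channels. The Cy3 intensities were 3132, 2613 and 2505, and the Cy5 intensities were 5925, 5175 and 5360.5. Cy5 was brighter on every array by 1.88, 1.96 and 2.13 times after background subtraction, near the imbalance of the typical spot. The log2 ratio after loess was 0.25, 0.11 and 0.32, with a mean of 0.23 ± 0.10 (SD, n = 3), which is 1.17-fold brighter in Cy5. The sign of Lmo2 was the same on all 3 arrays, as it was for 28.9% of all genes on the Cy5 side. When arrays were centred on their median in place of loess, Lmo2 had a ratio of 0.31.

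Among the GATA factors, Gata2, which acts in blood progenitors and in GABA neurons, was the one with signal on all arrays. Its Cy3 intensities were 220, 186 and 184 over backgrounds of 54, 42 and 46, and its Cy5 intensities were 329, 320 and 338.5 over backgrounds of 132, 109 and 115.5. The log2 ratio was -0.11, -0.05 and 0.12, with a mean of -0.01 ± 0.12 (SD, n = 3). Arrays 1 and 2 lay below 0 and array 3 above it.

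Gata1, the main GATA factor of red cells and megakaryocytes, was below the detection call in both channels on all arrays. Its Cy3 intensities of 69, 62.5 and 66 stood over backgrounds of 54, 33 and 36, and its Cy5 intensity on array 1, 128, was below its background of 154. The ratio of such a spot has little content, and its mean was 0.05 ± 0.05 (SD, n = 3).

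Gata3, known for T cells and for brainstem and spinal neurons, was well above background on array 3 only, in both channels. The Cy3 intensities were 113, 93 and 107.5 and the Cy5 intensities were 154, 167 and 201. The log2 ratio was -0.20, 0.05 and 0.12, with a mean of -0.01 ± 0.17 (SD, n = 3), and its sign differed between arrays.

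Runx1, which acts in the emergence of blood stem cells and also in microglia and sensory neurons, has 2 probes. The brighter one gave Cy3 intensities of 114, 194 and 96.5 and Cy5 intensities of 192, 368 and 156. The Cy3 reading passed the detection call on arrays 1 and 2 and the Cy5 reading on array 2, which was high in both channels. Its log2 ratio was -0.04, 0.08 and 0.01, with a mean of 0.02 ± 0.06 (SD, n = 3). The second probe passed the detection call only in Cy3 on array 1, and its ratio was 0.07, 0.04 and -0.02, with a mean of 0.03 ± 0.05 (SD, n = 3). Both probes thus lay at 0 within their spread.

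**Figure D3:**
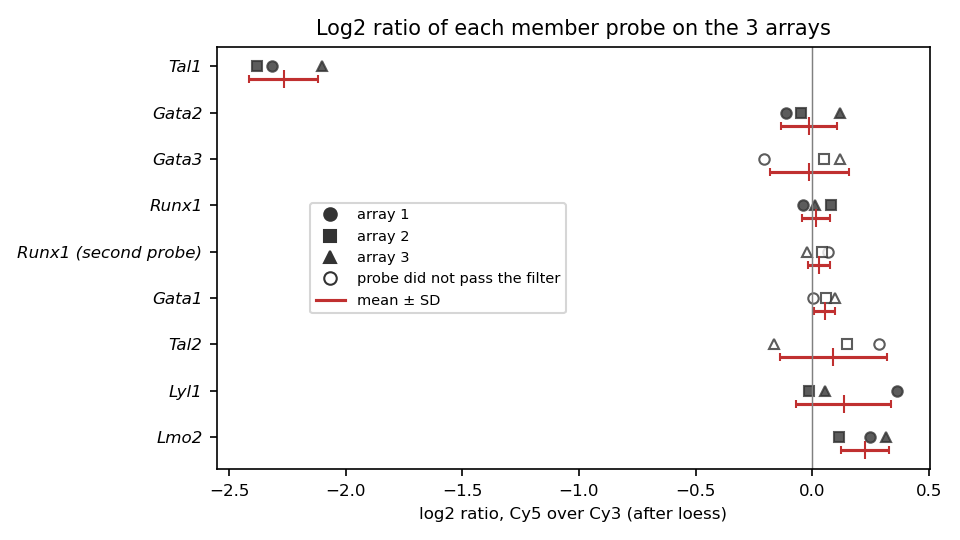
Log2 ratio (Cy5 over Cy3, after loess) of each member probe on arrays 1 to 3 (circle, square and triangle, open where the probe did not pass the filter), with the mean ± SD over 3 arrays in red below. Tal1 lies between -2.38 and -2.10, and the other 8 probes lie between -0.20 and 0.37.

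From the lowest mean to the highest, the order was Tal1, Gata2, Gata3, Runx1, the second Runx1 probe, Gata1, Tal2, Lyl1 and Lmo2. The array ranges of neighbours in this order overlapped in 7 of 8 pairs, the exception being Tal1 and Gata2. Apart from Tal1, 6 of the 8 probes had ratios of both signs, and 2 (Lmo2 and Gata1) were above 0 on all 3 arrays. The means of these 8 probes ran from -0.01 to 0.23.

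The authors' deposited table lists Tal1 at a log2 fold change of 2.42 with an adjusted p of 0.159, the smallest adjusted p in that table. In the authors' deposited table Lmo2 stands at -0.24, Lyl1 at -0.17, Tal2 at -0.44, Gata1 at -0.20, and the Runx1 probes at -0.09 and -0.19. These signs are opposite to those found here for each of them, as they are for Brpf1, which the authors' deposited table lists at -0.80. The probes of Gata2 and Gata3 are not among the spots that table lists. With the scanner software's processed signals Tal1 had a ratio of -2.48.

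The genes whose 3 array ratios lay nearest to those of Tal1 were taken by Euclidean distance over the 3 arrays among 15075 genes with a symbol that is no clone or model name. They were Tbx5 (distance 0.35), Cdkn2b (0.40), Onecut1 (0.47), Foxa1 (0.54) and Nkx2-3 (0.58). Cdkn2b, an inhibitor of cyclin-dependent kinases, had a mean log2 ratio of -2.04 ± 0.11 and the homeobox gene Nkx2-3 one of -2.58 ± 0.03 (SD, n = 3), both above background in both channels. The T-box factor Tbx5, the cut-homeobox factor Onecut1 and the forkhead factor Foxa1 had no Cy5 reading well above background. Set against the higher of the detection floor and the probe's own Cy5 signal, their signal in Cy3 was at least 4.57-fold, 4.07-fold and 3.81-fold higher. For Tbx5 and Onecut1 the probe's own Cy5 signal was the higher, so that the value equals the ratio as measured. Of these 6 genes, Tal1 was among the 3 with a measured Cy5 level. With the scanner software's processed signals Tbx5, Onecut1 and Foxa1 had ratios of -3.51, -3.31 and -4.30, against -2.48 for Tal1. Cdkn2b and Nkx2-3 then had ratios of -2.26 and -2.82. The nearness of Tbx5, Onecut1 and Foxa1 to Tal1 was thus not kept with those signals.

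The genes beside Tal1 on the chromosome did not share its ratio. Cmpk1 and Stil, the nearest tested genes on one side, had log2 ratios of -0.12 ± 0.02 and -0.11 ± 0.09 (SD, n = 3). Pdzk1ip1 and Cyp4x1, on the other side, had ratios of -0.03 ± 0.19 and 0.32 ± 0.28. None of the 4 passed the threshold in limma, and 1 had an unadjusted p under 0.05.

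Around all 8 members, 2 of the 31 neighbouring genes reported passed the threshold, beside 17.1% of all genes, and their median log2 ratio was -0.04 with a range of -0.50 to 0.34. Fsd1l, near Tal2, was brighter in Cy3 (-0.50 ± 0.36, adjusted p = 0.041), with a ratio of -0.32 without array 1. Nfix, a nuclear factor I gene beside Lyl1, was brighter in Cy5 (0.34 ± 0.15, adjusted p = 0.034). Neither call was kept without array 1 or without array 3. The count was then 1 and 0, with 5 genes at an unadjusted p under 0.05 in limma without array 3.

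**Figure D4:**
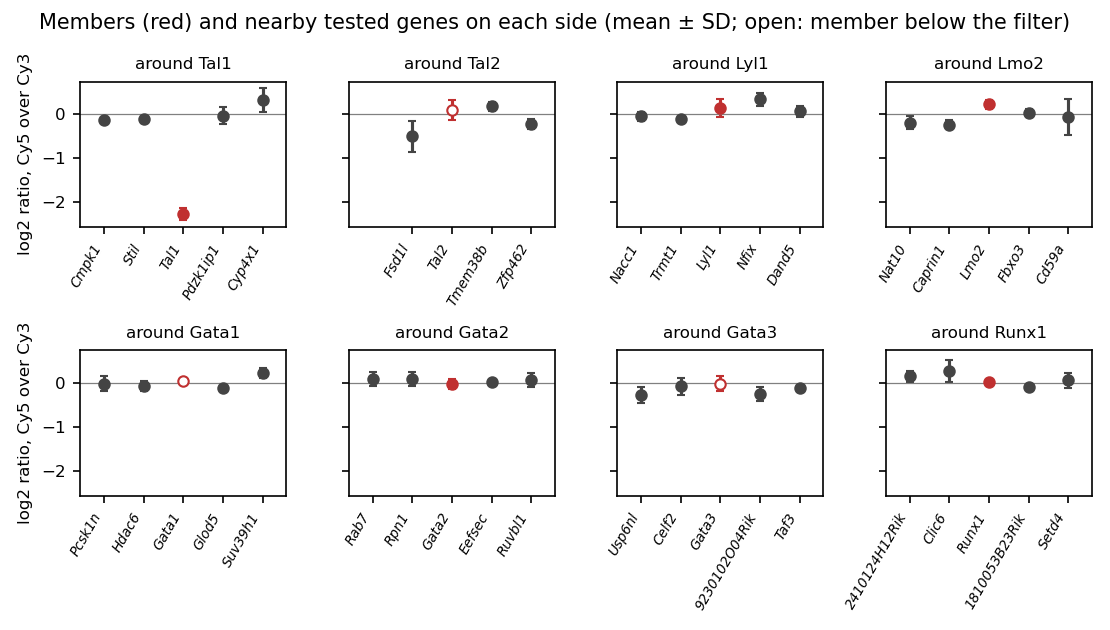
Mean log2 ratio ± SD over 3 arrays (Cy5 over Cy3) of each member (red, open where below the filter) and of up to 2 nearby tested genes on each side, in chromosome order. Tal1 lies at -2.27 while its 4 neighbours lie between -0.12 and 0.32, and no plotted neighbour of any member is below -0.50.

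Transcripts of proteins that work with the members, or that hold back their E protein partners, were detected, with small ratios. All 16 genes of this partner list passed the filter. It holds E proteins, LDB and SSBP adaptors, FOG cofactors, Cbfb, Cbfa2t3 and the ID inhibitors, so its counts and median are not those of the TAL1 complex alone. Cy3 was brighter for 3 and Cy5 for 1 of them past the threshold, beside 9.16% and 7.97% of all genes. The list's median log2 ratio was -0.07. Tcf12, an E protein that pairs with TAL1, was brighter in Cy3 (-0.37 ± 0.08, adjusted p = 0.020), and its other probe gave -0.38. Ldb2, a LIM-domain-binding adaptor, was brighter in Cy3 (-0.33 ± 0.10, adjusted p = 0.030), as was Id2 (-0.33 ± 0.21, adjusted p = 0.049). Id3, which like Id2 keeps E proteins off DNA, was brighter in Cy5 (0.29 ± 0.09, adjusted p = 0.037). Ldb1, the adaptor named above, stood at 0.02 and Tcf3 at -0.05, neither past the threshold. Without array 3 none of the 16 passed in limma (4 at an unadjusted p under 0.05), and with median centring in place of loess the calls of Tcf12 and Ldb2 were lost and Id2 turned to 0.08. With that centring the split of the calls turned, with 0 partners brighter in Cy3 and 5 in Cy5, and the list's median became 0.13, beside 0.087 for all genes (-0.0064 after loess).

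Among 10 paralogs from the GATA, RUNX, LMO and NHLH families, 3 passed the threshold brighter in Cy3 and 2 brighter in Cy5. The shares of all genes were 9.16% and 7.97%, and the list's median was -0.03. Lmo4, a LIM-only gene of cortical neurons, was brighter in Cy5 with log2 ratios of 0.71, 0.67 and 0.90 and a mean of 0.76 ± 0.12 (adjusted p = 0.0031). Its other probe gave 0.89. Lmo1 was brighter in Cy3 (-0.55 ± 0.17, adjusted p = 0.011), and Lmo3 was brighter in Cy5 (0.30 ± 0.11, adjusted p = 0.036). The LIM-only genes thus lay on both sides of 0. Nhlh2, a neuronal helix-loop-helix factor, was brighter in Cy3 (-0.47 ± 0.24, adjusted p = 0.024), and so was Gata6 (-0.40 ± 0.13, adjusted p = 0.021). Gata6 had no Cy5 reading above background and a signal at least 1.27-fold higher in Cy3. It passed the filter through Cy3 alone, on 2 arrays, so the Cy3 count includes a gene let in by that channel. Gata4, Gata5, Runx2, Runx3 and Nhlh1 did not pass the threshold. The count of 5 was 3 without array 1 and 2 without array 3, and Lmo4 and Lmo1 kept their calls under all 13 other settings.

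Of 20 other transcription factors of blood, 14 passed the filter, with a median of 0.03. Past the threshold, 1 was brighter in Cy3 and 2 in Cy5, beside 9.16% and 7.97% of all genes. Gfi1, a zinc-finger repressor of blood stem cells that is also expressed in inner ear hair cells, had log2 ratios of -1.17, -1.12 and -1.06 and a mean of -1.11 ± 0.05 (adjusted p = 0.00035). All 3 Cy3 readings and no Cy5 reading passed the detection call, which makes it at least 2.10-fold brighter in Cy3. Bcl11a, a regulator of globin genes and of cortical neurons, was brighter in Cy5 (0.54 ± 0.14, adjusted p = 0.010), and its other probe gave 0.19. Etv6 was brighter in Cy5 as well (0.31 ± 0.13, adjusted p = 0.039). Cebpe, Gfi1b, Klf1, Nfe2 and Pax5 were not above background anywhere.

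Pooled over the 10 lists of related genes and cell markers, 104 of 144 genes passed the filter, and 26 of them (25.0%) passed the threshold, beside 17.1% of all genes, 7 brighter in Cy3 and 19 in Cy5. The 26 became 10 without array 3 and 7 with the processed signals. With median centring the split was 3 in Cy3 and 28 in Cy5. Gfi1 had the lowest ratio among them, above that of Tal1 on every array after loess. With the processed signals this order turned, with Gfi1 at -3.21 and Tal1 at -2.48. Gfi1 had no Cy5 reading well above background, so the size of its ratio depends on the processing.

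**Figure D5:**
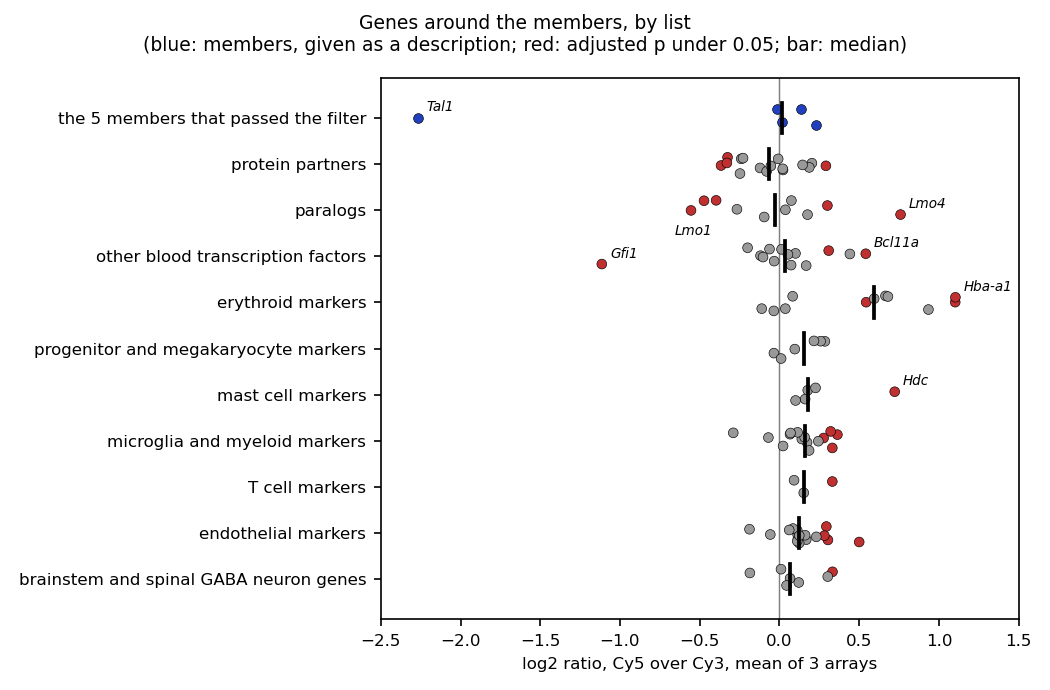
Mean log2 ratio (Cy5 over Cy3) of the members that passed the filter (blue) and of the genes in 10 related lists, red where the adjusted p was under 0.05, with the median of each list as a bar. Tal1 at -2.27 and Gfi1 at -1.11 are the lowest points, and the erythroid list has a median of 0.59.

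Markers of the cells known to express the members were examined for a like difference. The medians of all 7 such lists lay above 0, here and under each of the 13 other settings, the lowest being 0.03. This was not particular to them. The cortex markers had a median of 0.09 here and above 0 under each other setting, the lowest being 0.04. With median centring the median of all genes was itself 0.087. Calls in the lists below stand beside 7.97% of all genes past the threshold and brighter in Cy5. Of 22 erythroid genes, 20 were on the array, and 11 passed the filter. Cy5 was brighter for the 3 genes past the threshold, and the median was 0.59. The alpha globins Hba-a1 and Hba-a2, near-identical copies whose probes may read the same RNA, had mean log2 ratios of 1.10 ± 0.55 (adjusted p = 0.013) and 1.10 ± 0.53 (adjusted p = 0.013). The receptor Epor was also brighter in Cy5 (0.54 ± 0.15, adjusted p = 0.010). The summed normalized intensity of the list ran from 145759 to 343075 in Cy3 and from 368721 to 510636 in Cy5, while Hba-x, Kel, Rhag and Rhd were not above background anywhere. The beta globin gene Hbb-b2 had log2 ratios of -0.15, 0.52 and 1.67 on arrays 1, 2 and 3, Hbb-bt had -0.06, 0.45 and 1.40, and Alas2, the first enzyme of haem synthesis in red cells, had 0.12, 0.51 and 1.36, none of them past the threshold. Array 3 was the highest for each of these genes and for both alpha globins. The list's median was 0.19 without array 3, 0.67 without array 2 and 0.92 without array 1, where the counts were 4, 7 and 7. With no filter the median was 0.12. Other erythroid genes lay near 0: Slc4a1 and Hbb-bh1 stood at 0.08 and 0.04, Ermap and Hemgn at -0.11 and -0.04, none past the threshold. The alpha globins were the brightest genes of the list, with mean log2 intensities of 16.4 and 16.6. The summed erythroid signal was thus higher in Cy5, opposite to Tal1, and its part in the ratio of Tal1 was not tested.

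Of 13 genes of blood progenitors and megakaryocytes, 6 passed the filter and none passed the threshold in limma, with 3 at an unadjusted p under 0.05. The median was 0.16. Gp1bb stood at 0.28 ± 0.16 (adjusted p = 0.055) and Gp5 at 0.26 ± 0.16 (adjusted p = 0.069). The list's summed intensity ran from 18890 to 20030 in Cy3 and from 20092 to 20880 in Cy5, and Gp6, Gp9, Ppbp and Treml1 were not above background anywhere. Leaving out array 2 brought 1 gene past the threshold.

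Of 8 mast cell genes, a lineage that uses Gata2, 5 passed the filter. Their median was 0.18, and 1 was brighter in Cy5 past the threshold. That gene was Hdc, the histamine-forming enzyme (0.72 ± 0.51, adjusted p = 0.034). Its log2 ratios were 1.29, 0.31 and 0.57, with array 1 the highest, and its mean was 0.44 without array 1, still past the threshold (adjusted p = 0.030). The summed intensity was 1315 to 1534 in Cy3 and 1687 to 2300.0 in Cy5, and Fcer1a, Ms4a2 and Tpsab1 were not above background anywhere.

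All 15 microglial and myeloid genes passed the filter, with a median of 0.16, and 4 were brighter in Cy5 past the threshold. The complement genes C1qa (0.32 ± 0.19, adjusted p = 0.047) and C1qb (0.36 ± 0.22, adjusted p = 0.042) were among them, beside Fcer1g and Cd68. Without array 1 the ratio of C1qb was 0.24. The summed intensities overlapped, at 88986 to 95683 in Cy3 and 86953 to 95983 in Cy5. Without array 1 or without array 3 none of these genes passed in limma, with 5 at an unadjusted p under 0.05 in either case.

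All 17 endothelial genes passed the filter, with a median of 0.12, and 4 were brighter in Cy5 past the threshold. Sox18 (0.50 ± 0.16, adjusted p = 0.013), Egfl7 (0.29 ± 0.10, adjusted p = 0.038), Cldn5 (0.30 ± 0.14, adjusted p = 0.042) and Tie1 (0.28 ± 0.13, adjusted p = 0.048) were the 4. The summed intensity ran from 67332 to 69303 in Cy3 and from 77545 to 86274 in Cy5, without overlap. Cldn5 was the brightest gene of the list, with a mean log2 intensity of 15.1. Pecam1, Cdh5 and Slco1a4 had ratios of 0.06, -0.06 and -0.19, none past the threshold. The summed endothelial signal was thus also higher in Cy5, opposite to Tal1, and its part in the ratio of Tal1 was not tested. Without array 1 or without array 3 the count was 1.

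Of 9 T cell genes, 3 passed the filter and Lck was brighter in Cy5 (0.33 ± 0.14, adjusted p = 0.034), with a list median of 0.15 and a summed intensity of 3488 to 4174 in Cy3 and 4115 to 5608 in Cy5. Cd3g, Cd8a and Il7r were not above background anywhere. Without array 1 or without array 3 Lck did not pass in limma, and 1 gene was at an unadjusted p under 0.05.

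Of 14 genes of brainstem and spinal GABA neurons, cells whose fate depends on Tal1 and its relatives, 7 passed the filter. Their median was 0.07, and 1 was brighter in Cy5 past the threshold. That gene was Slc32a1, the vesicular GABA transporter that all GABA neurons use (0.33 ± 0.21, adjusted p = 0.049), and its other probe gave 0.50. Gad1 and Gad2, of the same list, did not share this ratio. They stood at -0.19 ± 0.11 and 0.01 ± 0.19 (SD, n = 3), neither past the threshold. En1, Helt, Lhx3, Slc6a5 and Vsx1, which mark neuron classes of the midbrain, brainstem or spinal cord, were not above background anywhere. The summed intensity of the list was 60080 to 69111 in Cy3 and 68375 to 70801 in Cy5. The count was 0 without array 1 (1 gene at an unadjusted p under 0.05 in limma), 2 without array 2 and 0 without array 3 (2 genes).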

How the data were processed

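RNA of dorsal cortex was hybridised to 3 two-colour arrays on 1 slide, each holding 1 pair of pups, from 350 ng of total RNA amplified in a single round, per the labels' protocols. Per the file headers, Agilent Feature Extraction 10.7.3.1 read the spots, on a grid of build mm9. The deposited scanner files hold a median intensity for the spot and for the ring around it, unnormalized. The processed intensity and its log10 ratio of red over green, per the file headers, were corrected for background and dye by that software, and served as an alternative. Flags for spots above background, saturation and outliers are those of the same deposited files. The authors also deposited a comparison of 40000 of 62976 spots (log2 fold change and mean, moderated t and log-odds score, raw and adjusted p-value), made with limma per the submitters' processing notes. Its largest p-value is 0.458, with direction, normalization and filter not given in the sources used here.

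Here the medians were corrected with normexp (offset 50) and loess in limma 3.58.1 under R 4.3.3, with control spots at weight 0, outlier spots left out and spots of a probe averaged. The filter kept 32983 of 55681 probes, those well above background in either channel on 2 or more arrays, and the brightest probe stood for its gene. The log2 ratio was tested against 0 with an intercept-only fit, two-sided, with Benjamini-Hochberg adjustment over 23232 genes and a threshold of 0.05. The number of arrays limits the precision, and p-values measure the spread between these 3 arrays. Names came from a RefSeq table of GRCm38.p6 (27656 probes) or the authors' deposited table (4082), and the other 23943 probes kept their systematic name. Lower bounds of a fold use channel values after loess and Aquantile normalization, set against the lowest signal well above background or the probe's own signal where that is higher, and are open to dye bias. The summed intensities of a list are those channel values on the linear scale.

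Named genes are the members, Brpf1, up to 4 called genes of each list with the smallest adjusted p (or 2 where none was called), called neighbours, and the 5 genes nearest to Tal1. Other genes named were picked after their values were seen, or for their role. Some genes that these rules or lists hold are not reported here. The members and the lists were chosen with earlier results of these data known. The fit was tested on simulated data.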

Additional observations from a re-analysis of the deposited data

How the results depend on the processing

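The mean log2 ratio of Tal1 ranged from -2.48 with the scanner software's processed signals to -2.21 over all settings run on the scanner files, and from -2.35 to -2.21 when 1 array was left out. In the authors' deposited table it is 2.42. The fit was itself paired by array, since each array holds 1 pair and the ratio within the array was tested. No further pairing was possible, because all arrays form a single group. Of the 5 members that passed the filter, 2 passed the threshold with median centring (Tal1 and Lmo2), and Tal1 alone did so under the 12 other settings. Of 3981 called genes 46.5% were brighter in Cy5. Median centring gave 83.4% of 5357, and the processed signals 52.2% of 1108. Leaving out 1 array gave 1866 to 3844 called genes, with the lowest number without array 3, of which 41.0% were brighter in Cy5.

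The processed signals gave 0 calls among the partners (7 at an unadjusted p under 0.05 in limma), mast cell genes (5), microglial genes (7), T cell genes (1), GABA neuron genes (2) and neighbours (10), 1 among the erythroid and 1 among the endothelial genes, and 3 among the paralogs. Median centring gave 5 partner calls, all in Cy5, 5 erythroid calls, 1 progenitor call and 6 neighbour calls, all 6 in Cy5. With array weights there were 7 partner, 7 erythroid, 2 progenitor and 7 neighbour calls. An offset of 16 gave 2 endothelial, 1 microglial and 0 GABA neuron calls (3 at an unadjusted p under 0.05), and setting intensity bins to 0 also gave 0 for the GABA neuron genes (2). Without a filter there were 5 erythroid calls and 1 progenitor call, and averaging the probes of a gene gave 1 progenitor and 1 neighbour call. When 1 array was left out, calls ranged from 0 to 4 for the partners, 2 to 4 for the paralogs, 4 to 7 for the erythroid, 0 to 1 for the progenitor, 0 to 4 for the microglial, 0 to 1 for the T cell, 1 to 4 for the endothelial, 0 to 2 for the GABA neuron genes and 0 to 2 for the neighbours. Id2 turned to 0.079 with median centring. The cause of these shifts was not tested. Of 37 genes past the threshold that the naming rule gives beside the members, 12 passed it under all 13 alternatives. They were Gfi1, Lmo1, Lmo4, Bcl11a, Epor, Sox18, Brpf1 and the 5 genes nearest to Tal1. All but Brpf1 were picked by their values in this contrast, and the alternatives reuse the same arrays. Keeping a call is therefore no independent support. Gfi1, Tbx5, Onecut1 and Foxa1, and Gata6 among the other called genes, passed the filter through Cy3 alone. The use of population outlier flags was chosen after seeing the data. Tal2, Gata1 and Gata3 lie too near the background for a difference to be detectable.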
